A study of Mus musculus with 24 samples.

Results

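The genes described here are 10 components of the Notch pathway: the receptors Notch1, Notch2, Notch3 and Notch4, the ligands Jag1, Jag2 and Dll1, and the transcriptional targets Hes1, Hey1 and Heyl. They were picked by symbol, through the Entrez identifiers of the count table, and are 10 of the 27179 genes listed. All 10 passed the filter on low counts that left 18109 genes for testing. RNA of sorted mammary epithelium was sequenced from pubertal mice, with 12 groups of 2 libraries each. Mammary tissue was microdissected to separate ducts from TEBs (terminal end buds, the bulbous tips where the ducts grow), and lineage-negative EpCAM+ cells were sorted by CD29 into a basal gate (high) and a luminal gate (low). In mice of the Elf5-rtTA-IRES-GFP model the luminal gate was divided into GFP+ and GFP- cells, so that GFP follows Elf5, a transcription factor of luminal progenitors. In mice of the PR-cre/Rosa26-LSL-eYFP model it was divided into YFP+ and YFP- cells, where YFP marks cells that express, or descend from cells that expressed, Cre under the progesterone receptor gene. The basal gate was sorted in both models.

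Notch receptors are membrane proteins that are cut when a ligand on a neighbouring cell pulls on them. The freed intracellular part enters the nucleus, joins the DNA-binding protein RBPJ and a Mastermind co-activator, and switches on repressor genes of the Hes and Hey families. In the mammary gland, Notch signalling is known as a regulator of luminal fate, with ligands in the basal layer and receptors in the luminal layer.

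Gates were checked against marker genes. Krt5, a basal keratin, was at 633 to 3180 CPM (the standard unit of read counts scaled to a common library total) in basal libraries. In luminal libraries it was at 0.579 to 60.3 CPM, except for 1960 CPM in GFP- duct replicate 2 and 453 CPM in YFP- TEB replicate 2. The first of these was above all 4 basal TEB libraries and below all 4 basal duct libraries. Epcam was at 1060 to 1800 CPM in luminal libraries against 186 to 334 CPM in basal ones. GFP+ libraries were set together with YFP- ones (below, the Elf5-high class) and GFP- libraries with YFP+ ones (the Pgr-high class). This pairing rests on what the reporters mark and on the Elf5 and Pgr levels of these same libraries, with earlier results known, so those levels are a description and no test of it. The submitters' own description names GFP+ cells beside YFP+ cells instead. Elf5 was at 410 to 1660 CPM in the first class and 15 to 87.3 CPM in the second, and Pgr, the progesterone receptor, at 13.2 to 73.3 CPM and 202 to 635 CPM. The pairing crosses the reporter-positive and reporter-negative gates of the 2 models, and values within each model are given for the main differences. Libraries held 31264622 to 52495208 counts, so that a count of 3 corresponded to 0.0571 to 0.096 CPM. Replicates of a group differed beyond counting noise, with a chi-square over its degrees of freedom of at least 18 in every group.

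A pair of luminal libraries stood apart. Luminal GFP- duct replicate 2 had a sum of 2390 CPM over 12 keratinocyte genes against 21.8 CPM in its replicate, and 3840 CPM over 10 basal markers against 526 CPM. Of these basal markers, Krt5 was at 1960 CPM in this library, and Krt14 and Trp63 reached 1120 and 202 CPM among Pgr-high ducts. Acta2, Myh11, Cnn1 and Oxtr did not exceed 13.6 CPM in any Pgr-high duct library, and were at 1350 CPM or more in basal ducts. Luminal YFP- TEB replicate 2 had 481 CPM over the keratinocyte genes against 115 CPM in its replicate. Basal libraries had 127 to 406 CPM over these genes in ducts and 362 to 469 CPM in TEBs, so 481 CPM was close to the basal TEB level. Both luminal libraries are called rich in keratinocyte transcripts below, in comparison with their replicates. Results that rest on either of this pair are given with and without it. Whether replicate libraries are separate animals is not stated in the labels, and gates of 1 model and replicate number may share a preparation, so the p-values describe the spread between libraries only. In bulk RNA, fewer cells of a type and less RNA per cell cannot be told apart.

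Promoter sequences are shown for 3 receptors and 1 ligand, chosen after their values were seen as examples of different patterns: Notch1 and Notch2, which were highest in the Elf5-high class, Notch3, which marked the whole luminal gate, and Jag1, which was high in basal and Pgr-high cells. The sequences are the bases upstream of the start site in RefSeq promoter entries, in build GRCm38.p6 (mm10), written 5′ to 3′ on the gene's strand. They were cut where an exon of the GENCODE annotation begins. The Notch3 gene is given as ending at 32166896 (minus strand), so the last bases of its printed stretch lie inside it. Notch1 is at chr2:26503825-26504072 (minus strand), Notch2 at chr3:98013288-98013526 (plus strand), Notch3 at chr17:32166891-32167140 (minus strand) and Jag1 at chr2:137116645-137116770 (minus strand). Capitals mark GC boxes, GGGCGG or its reverse complement CCGCCC, a motif known to bind SP factors. The search for them was chosen after the data were seen.
Notch1: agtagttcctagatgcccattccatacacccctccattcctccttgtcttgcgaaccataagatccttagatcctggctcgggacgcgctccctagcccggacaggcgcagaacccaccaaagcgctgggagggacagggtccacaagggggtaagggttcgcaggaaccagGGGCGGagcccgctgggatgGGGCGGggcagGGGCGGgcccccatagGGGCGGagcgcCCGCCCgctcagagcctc
Notch2: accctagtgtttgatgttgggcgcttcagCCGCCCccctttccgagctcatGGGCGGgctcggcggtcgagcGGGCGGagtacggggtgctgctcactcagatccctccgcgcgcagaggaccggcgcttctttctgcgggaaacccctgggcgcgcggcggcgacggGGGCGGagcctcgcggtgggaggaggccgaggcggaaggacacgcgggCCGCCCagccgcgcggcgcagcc
Notch3: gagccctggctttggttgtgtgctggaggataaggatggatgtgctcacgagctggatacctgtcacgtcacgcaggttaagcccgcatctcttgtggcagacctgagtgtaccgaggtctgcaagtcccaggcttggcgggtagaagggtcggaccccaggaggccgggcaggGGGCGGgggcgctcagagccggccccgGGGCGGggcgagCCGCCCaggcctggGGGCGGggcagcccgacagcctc
Jag1: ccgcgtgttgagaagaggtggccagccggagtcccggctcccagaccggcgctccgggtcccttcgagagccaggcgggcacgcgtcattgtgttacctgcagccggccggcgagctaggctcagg
The printed stretches hold 5 GC boxes for Notch1 (248 bases), 5 for Notch2 (239 bases), 4 for Notch3 (250 bases) and 0 for Jag1 (126 bases). Of the other members with an entry, Jag2 holds 5 in the 250 bases before the start, and Notch4 and Dll1 hold 0. The boxes thus did not divide receptors from ligands. Of 32851 RefSeq mouse promoters, taken over the 250 bases before the start, 32.7% hold at least 1 GC box on either strand. TGGGAA, the core of the RBPJ site, is in 21.6% of them and in none of the promoters of the 7 members that have an entry. CACGTG, the palindromic E-box, is in 6.02% of promoters and in none of those 7. The search for the RBPJ core and the E-box had been planned for the promoters of Hes1, Hey1 and Heyl, which were not analysed here.

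Notch1, a receptor known from luminal progenitors, was most abundant in Elf5-high cells of ducts. It was at 646 and 670 CPM in GFP+ ducts and 518 and 544 CPM in YFP- ducts. It was at 95.7 and 154 CPM in GFP- ducts, 145 and 123 CPM in YFP+ ducts, 91.8 and 58.4 CPM in basal ducts of the Elf5 model, and 110 and 81.9 CPM in basal ducts of the PR-cre model. Every Elf5-high duct library was above every other duct library. The difference between the luminal classes in ducts was 4.57-fold (log2 2.19 ± 0.16 SE, adjusted p = 1.25e-08, edgeR's quasi-likelihood test with Benjamini-Hochberg adjustment over all genes tested, used throughout). It was 2.40 on the log2 scale within the Elf5 model and 1.99 within the PR-cre model. In TEBs Notch1 was at 244 and 294 CPM in GFP+ cells and 257 and 254 CPM in YFP- cells, against 77.7 and 89.5 CPM in GFP- cells and 142 and 156 CPM in YFP+ cells. The classes again did not overlap, and the difference was 2.35-fold (log2 1.23 ± 0.16, adjusted p = 6.68e-06).

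Notch2 had its highest levels in the same class, over a smaller range. It was at 196 and 206 CPM in GFP+ ducts and 185 and 200 CPM in YFP- ducts, and between 60.1 and 96.9 CPM in the other 8 duct libraries. The Elf5-high class was 2.73-fold above the Pgr-high class in ducts (log2 1.45 ± 0.12, adjusted p = 3.07e-08). In TEBs it was at 113 and 120 CPM in GFP+ cells and 122 and 122 CPM in YFP- cells, against 55.2 to 80 CPM in the other 8 TEB libraries, a class difference of 1.96-fold (log2 0.97 ± 0.12, adjusted p = 3.15e-06). In both tissues the Elf5-high libraries were above all others.

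Notch3 divided the layers rather than the luminal classes. It was at 190 to 414 CPM in luminal duct libraries (median 309 CPM, n = 8) and 240 to 322 CPM in luminal TEB libraries (median 283 CPM, n = 8), while no basal library exceeded 28.6 CPM. The layers did not overlap in either tissue. Basal libraries were 25.9-fold lower in ducts (log2 -4.69 ± 0.10, adjusted p = 6.37e-16) and 34.4-fold lower in TEBs (log2 -5.11 ± 0.10, adjusted p = 3.83e-16). Between the luminal classes it differed by 0.31 ± 0.09 on the log2 scale in ducts (adjusted p = 0.00744), with overlapping libraries. That call was lost within each model (0.33 and 0.30) and without GFP+ duct replicate 1 (0.23), YFP+ duct replicate 2 (0.27), GFP- duct replicate 2 (0.17, adjusted p = 0.074) or YFP- duct replicate 1 (0.25). In TEBs the class difference was 0.05 (adjusted p = 0.695).

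Notch4, known mainly from endothelium, was at 0.477 to 2.25 CPM in the 24 libraries. Groups next to each other in order of level overlapped in all 11 neighbouring pairs, and no planned comparison called it; without both libraries that stood apart, its class difference in TEBs was 1.33 (adjusted p = 0.0416). Per length of transcript counted, the duct levels of the Elf5-high class were 62.6 ± 7.9 CPM per kb for Notch1, 42.8 ± 8.09 for Notch3, 18.7 ± 0.839 for Notch2 and 0.137 ± 0.0624 for Notch4 (SD, n = 4). In Pgr-high ducts Notch3 led on the same scale, with 34.5 ± 7.63 CPM per kb against 13.6 ± 2.73 for Notch1 and 6.9 ± 1.57 for Notch2. In basal ducts the order was Notch1 (9.02 ± 2.28), Notch2 (7.9 ± 0.837) and Notch3 (2.07 ± 1.69), with Notch1 and Notch2 within each other's spread. Notch1 thus led in Elf5-high ducts and Notch3 in Pgr-high ducts.

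**Figure D1:**
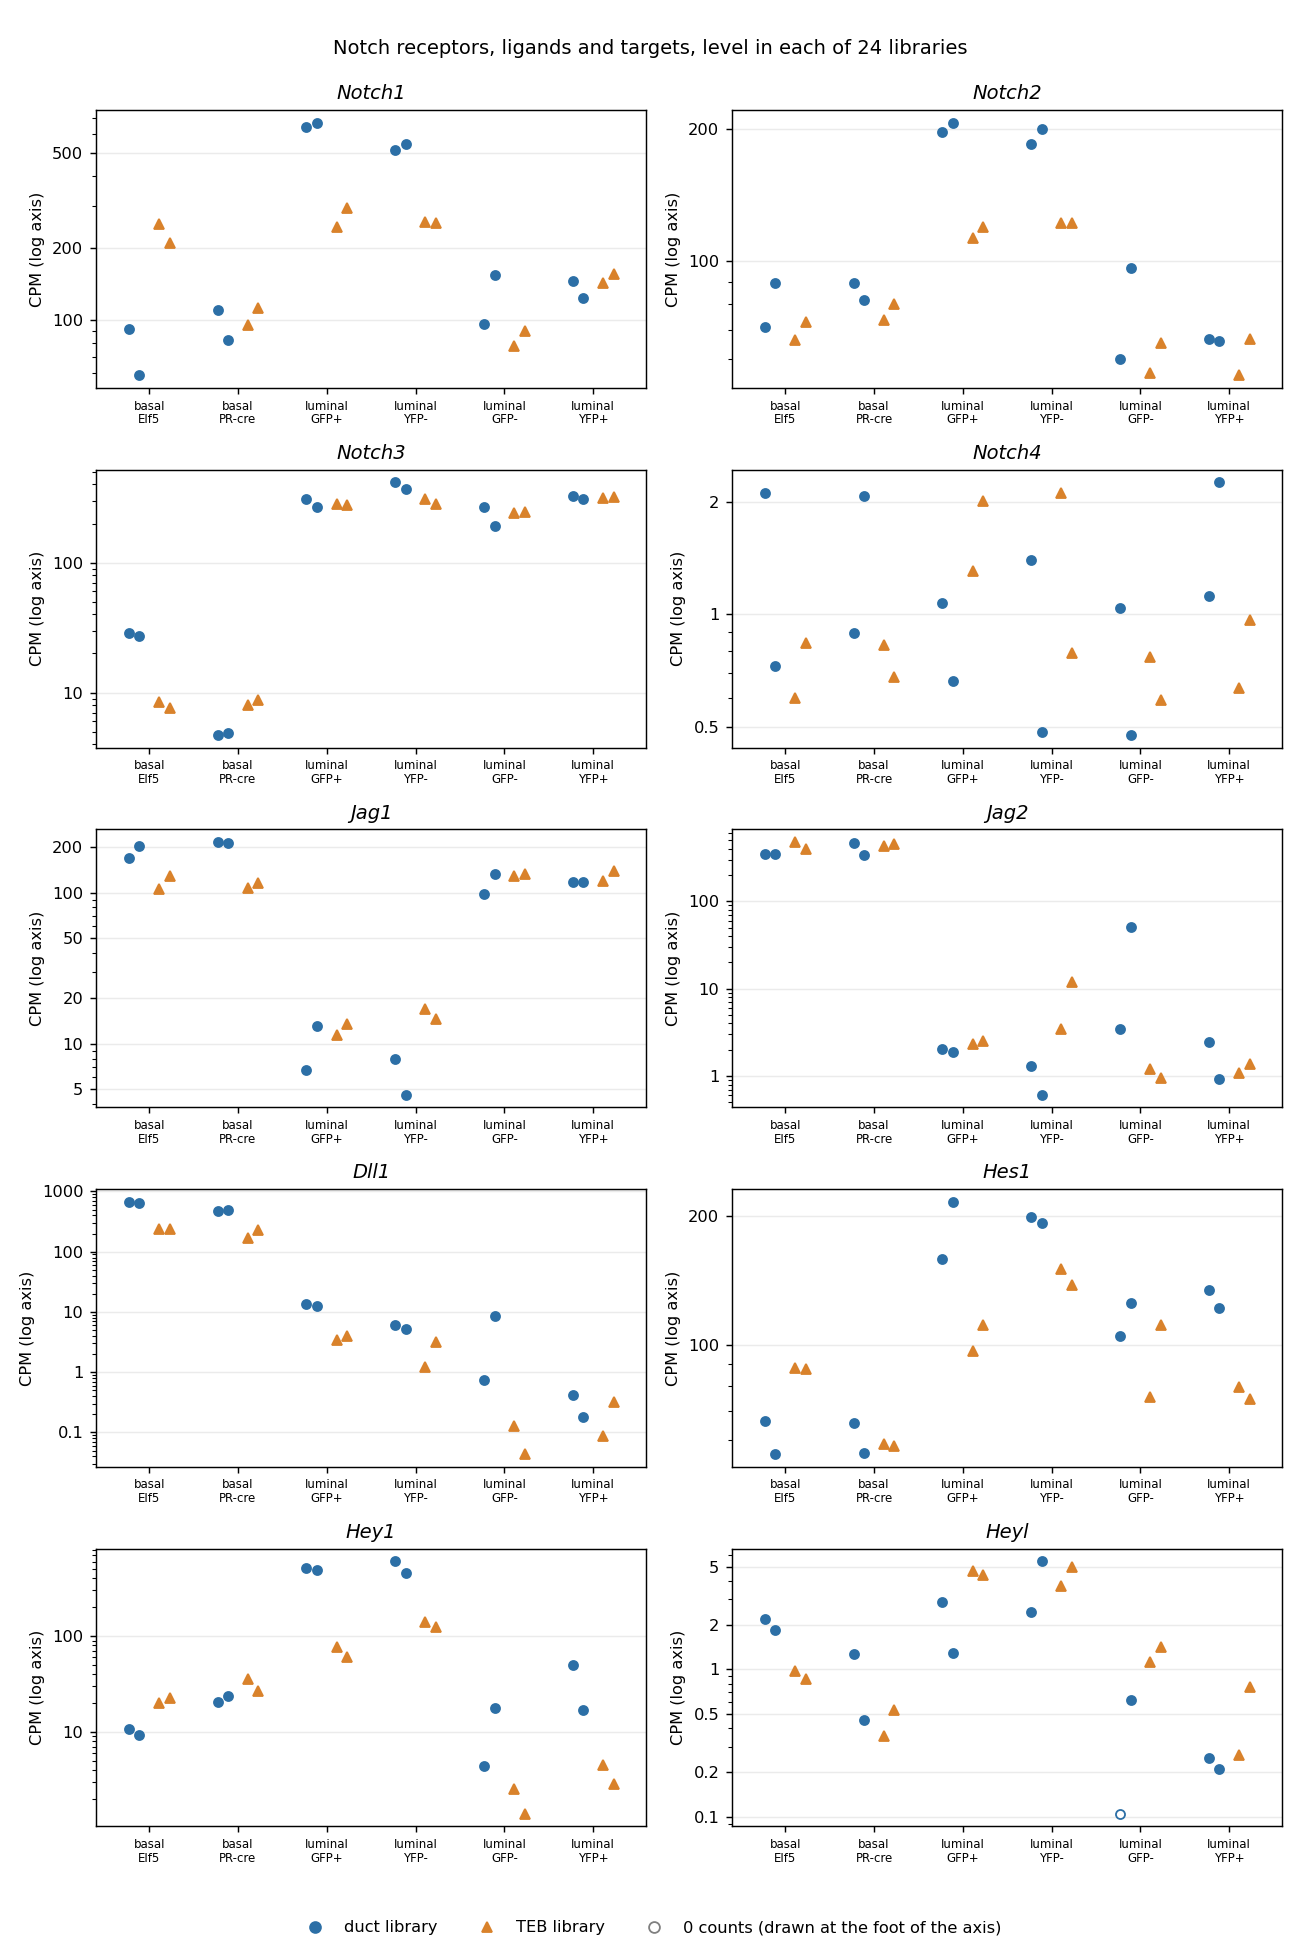
Each panel plots 1 gene, with CPM on a log axis for each of the 24 libraries; circles are duct libraries, triangles TEB libraries, and an open marker is a library with 0 counts. Notch1, Notch2 and Hey1 peak in luminal GFP+ and YFP- ducts, Notch3 is high in all luminal gates, Jag1 is low in GFP+ and YFP- cells, and Jag2 and Dll1 are high in basal cells.

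The ligand Jag1 had the opposite luminal pattern to Notch1. It was at 6.73 and 13.2 CPM in GFP+ ducts and 7.97 and 4.62 CPM in YFP- ducts, against 97.8 and 133 CPM in GFP- ducts and 117 and 117 CPM in YFP+ ducts. Basal ducts had 169 and 202 CPM in the Elf5 model and 216 and 214 CPM in the PR-cre model. Jag1 RNA was thus carried by basal and Pgr-high luminal cells, and every Elf5-high library was far below both. The Elf5-high class was 14.7-fold below the Pgr-high class in ducts (log2 -3.87 ± 0.20, adjusted p = 5.99e-10), at -3.54 within the Elf5 model and -4.21 within the PR-cre model. In TEBs it was 9.25-fold below (log2 -3.21 ± 0.20, adjusted p = 3.61e-09), with 11.4 to 17 CPM against 120 to 138 CPM. Basal ducts exceeded the mean of the luminal gates 6.58-fold (log2 2.72 ± 0.15, adjusted p = 2.83e-10). Basal TEBs, at 105 to 129 CPM, were above every Elf5-high TEB library, and all but the library at 129 CPM were below every Pgr-high TEB library.

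Jag2 and Dll1 were basal ligands. Jag2 was at 342 to 460 CPM in basal ducts (median 347 CPM, n = 4) and 399 to 477 CPM in basal TEBs (median 444 CPM, n = 4). Among luminal libraries it stayed at or below 3.49 CPM except in the pair that stood apart, with 51.5 CPM in GFP- duct replicate 2 and 11.9 CPM in YFP- TEB replicate 2. Basal exceeded luminal 120-fold in ducts (log2 6.91 ± 0.54, adjusted p = 6.54e-08) and 199-fold in TEBs (log2 7.64 ± 0.55, adjusted p = 2.83e-08). Without GFP- duct replicate 2 the duct value was 7.59. Jag2 was lower in the Elf5-high class in ducts (log2 -2.31 ± 0.72, adjusted p = 0.0166), but -0.84 (adjusted p = 0.164) without GFP- duct replicate 2. The call was also lost without YFP+ duct replicate 1 (-1.87) or YFP- duct replicate 2 (-2.12), and within the PR-cre model (-0.81). In TEBs it was higher in that class (log2 1.91 ± 0.69, adjusted p = 0.0366), and 1.34 (adjusted p = 0.168) without YFP- TEB replicate 2. This call held in 6 of 24 fits that each left out 1 library, and was lost within the Elf5 model (1.17). With both libraries that stood apart left out the class differences were -0.83 (adjusted p = 0.0277) and 1.34 (adjusted p = 0.001).

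Dll1, a ligand known from basal mammary stem cell populations, was at 678 and 655 CPM in basal ducts of the Elf5 model and 479 and 485 CPM in those of the PR-cre model. Luminal duct libraries had 0.18 to 13.4 CPM. Basal exceeded luminal 176-fold in ducts (log2 7.46 ± 0.42, adjusted p = 1.56e-09; 8.05 without GFP- duct replicate 2) and 353-fold in TEBs (log2 8.46 ± 0.46, adjusted p = 1.28e-09). The low luminal level was itself divided by class. In ducts it was 13.4 and 12.5 CPM in GFP+ cells and 6.16 and 5.14 CPM in YFP- cells, against 0.756 and 8.47 CPM in GFP- cells and 0.423 and 0.18 CPM in YFP+ cells. The value of 8.47 CPM belongs to GFP- duct replicate 2, and it alone made the classes overlap. The difference was 7.12-fold (log2 2.83 ± 0.56, adjusted p = 0.000858), and 4.11 ± 0.35 on the log2 scale (adjusted p = 2.17e-07) without that library. Within the Elf5 model, which holds it, the value was 1.49 and did not pass (adjusted p = 0.0869). In TEBs the Elf5-high class had 1.21 to 3.93 CPM and the Pgr-high class 0.0437 to 0.323 CPM, from 2 to 14 counts per library, so the fitted 21.2-fold difference (log2 4.40 ± 0.77, adjusted p = 0.000312) rests on very few reads on 1 side.

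Per kb, Dll1 was the most abundant of the 3 ligands in basal ducts (168 ± 31.2 CPM per kb, SD, n = 4), before Jag2 (92.2 ± 14.1) and Jag1 (36.4 ± 3.94). In basal TEBs the first 2 changed places, with 109 ± 8.05 CPM per kb for Jag2 and 63.3 ± 9.5 for Dll1, and Jag1 at 20.8 ± 1.98. In Pgr-high cells Jag1 was the leading ligand, at 21.1 ± 2.6 CPM per kb in ducts and 23.6 ± 1.39 in TEBs. No ligand of the 3 exceeded 2.72 ± 1.24 CPM per kb (Dll1 in ducts) as a class mean in Elf5-high cells.

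Hey1, a basic helix-loop-helix repressor induced by Notch, had the widest luminal range of the targets. It was at 518 and 485 CPM in GFP+ ducts and 605 and 456 CPM in YFP- ducts, against 4.42 and 17.7 CPM in GFP- ducts and 50.2 and 17 CPM in YFP+ ducts. The classes were 26.7-fold apart (log2 4.74 ± 0.42, adjusted p = 5.04e-07; 5.37 without GFP- duct replicate 2). In TEBs it was at 76.8 and 60.6 CPM in GFP+ cells and 142 and 125 CPM in YFP- cells, against 1.4 to 4.53 CPM in Pgr-high cells, a difference of 35.4-fold (log2 5.15 ± 0.45, adjusted p = 4.11e-07). No library of one class reached the range of the other in either tissue. Basal ducts, at 9.36 to 23.9 CPM, were within the range of the Pgr-high ducts, and basal TEBs, at 20.1 to 36.1 CPM, were above every Pgr-high TEB library.

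Hes1, another repressor target with inputs beyond Notch, had a narrow range. It was at 159 and 216 CPM in GFP+ ducts and 199 and 193 CPM in YFP- ducts, at 105 to 134 CPM in Pgr-high ducts and at 55.5 to 66.3 CPM in basal ducts. The 3 classes did not overlap in ducts. Elf5-high exceeded Pgr-high 1.58-fold in ducts (log2 0.66 ± 0.12, adjusted p = 0.000156) and by 0.53 ± 0.12 on the log2 scale in TEBs (adjusted p = 0.00117), where the value was 0.16 (adjusted p = 0.513) within the Elf5 model and 0.90 (adjusted p = 0.000378) within the PR-cre model. Heyl did not exceed 5.43 CPM. It was at 1.3 to 5.43 CPM in Elf5-high ducts against 0 to 0.617 CPM in Pgr-high ducts, 10.7-fold apart in the fit (log2 3.41 ± 0.68, adjusted p = 0.00046). Without GFP- duct replicate 2 the fitted value was 6.73, with its group reduced to 1 library at 0 counts, so that value is no measure of size. In TEBs the classes were at 3.7 to 4.98 CPM and 0.264 to 1.42 CPM, 5.47-fold apart (log2 2.45 ± 0.62, adjusted p = 0.00367; 1.82, adjusted p = 0.117, within the Elf5 model). In both tissues every Elf5-high library was above every Pgr-high one.

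Read as counts, 7 of the 10 genes were higher and 2 lower in Elf5-high than in Pgr-high ducts, where 47.9% of all genes tested were called (24.6% higher and 23.3% lower). The median log2 difference of the 10 was 1.05, against 0 over all genes. In TEBs 7 were higher and 1 lower, where 47.6% of all genes were called (24.6% higher and 23% lower), with a median of 1.15 against 0.06. Between layers, 3 were higher and 5 lower in basal than luminal ducts, where 63.3% of all genes were called (33.5% higher and 29.8% lower). The luminal side was the mean of the 4 luminal gates, so a call need not hold against both classes. In TEBs 3 were higher and 3 lower, where 58.8% were called (30.8% higher and 28% lower). The 3 ligands were the members higher in basal cells in both tissues. The luminal classes did not overlap for 6 of the 10 genes in ducts, where 33.2% of all genes did not, and for 7 in TEBs, where 39% did not. The layers did not overlap for 5 genes in ducts (30.2% of all genes) and 3 in TEBs (31%). Heyl differed between layers by 0.58 in ducts (adjusted p = 0.353), and by 2.19 (adjusted p = 0.00395) without GFP- duct replicate 2, with that group then at 0 counts. In TEBs it was lower in basal cells (log2 -1.56 ± 0.56, adjusted p = 0.0246), a call lost without any 1 of the 4 basal TEB libraries or YFP+ TEB replicate 2 (-1.73 to -1.33), and within each model (-1.38 and -1.75).

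**Figure D2:**
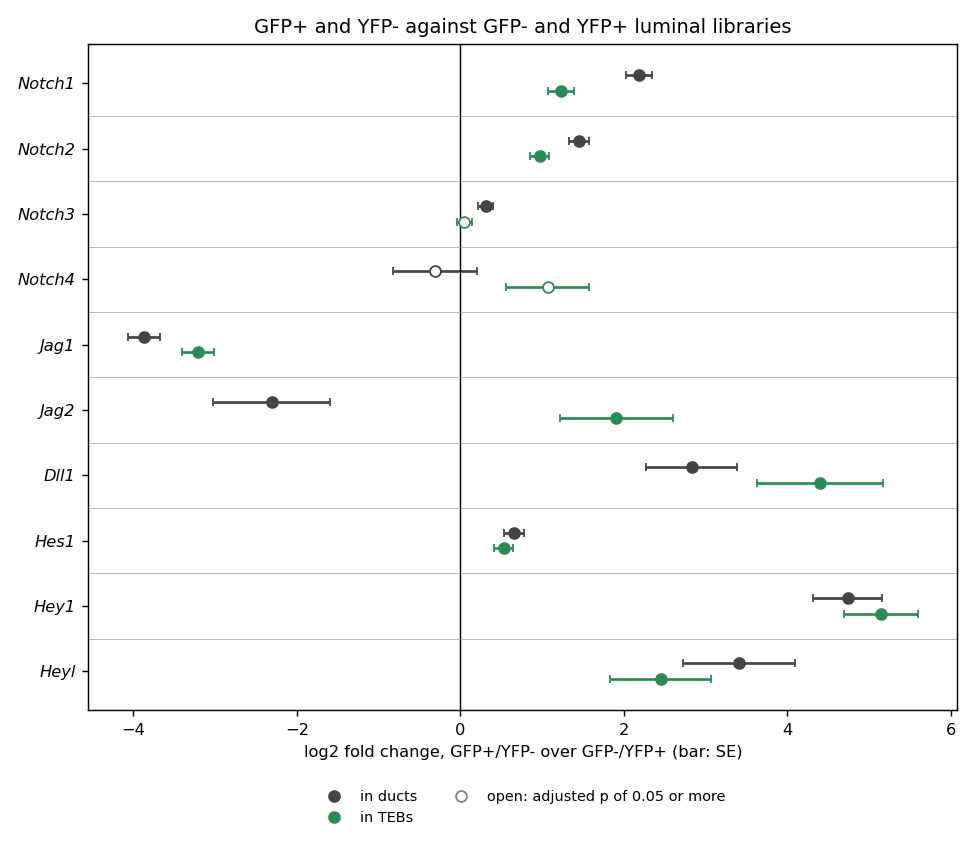
Log2 fold change of Elf5-high (GFP+ and YFP-) over Pgr-high (GFP- and YFP+) luminal libraries for each gene, in ducts and TEBs; bars are the SE and open points have an adjusted p of 0.05 or more. Jag1 lies at -3.87 and -3.21, and Hey1 at 4.74 and 5.15.

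Notch1 in the basal-to-luminal comparison of TEBs had opposite signs in the 2 models, a difference that was not itself tested. Basal TEBs had 253 and 210 CPM in the Elf5 model but 94.7 and 112 CPM in the PR-cre model. The pooled difference from luminal TEBs was -0.15 ± 0.13 on the log2 scale (adjusted p = 0.381). Within the Elf5 model basal was higher (0.63, adjusted p = 0.0099), and within the PR-cre model it was lower (-0.92, adjusted p = 0.00104). In ducts Notch1 in basal cells was 3.25-fold below the mean of the luminal gates (log2 -1.70 ± 0.15, adjusted p = 3.03e-08). Its basal duct libraries, at 58.4 to 110 CPM, overlapped the Pgr-high ones, at 95.7 to 154 CPM. Notch2 differed from the same mean by -0.52 ± 0.10 (adjusted p = 0.000298). It averaged 83 CPM in basal ducts, above the 72.5 CPM of Pgr-high and below the 197 CPM of Elf5-high ducts. Hes1 was 2.51-fold lower in basal ducts (log2 -1.33 ± 0.11, adjusted p = 9.18e-09) and Hey1 6.68-fold lower (log2 -2.74 ± 0.37, adjusted p = 1.58e-05) than the mean of the luminal gates. In TEBs Hey1 differed by 0.69 ± 0.32 (adjusted p = 0.0799). Hes1 was lower in basal TEBs (log2 -0.51 ± 0.10, adjusted p = 0.00038), with -0.16 (adjusted p = 0.38) within the Elf5 model.

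The next question was how the genes differed between TEBs and ducts in each class. In Elf5-high cells 5 of the 10 genes fell and 1 rose, where 32.6% of all genes were called (17.4% higher and 15.2% lower). Notch1 fell 2.25-fold (log2 -1.17 ± 0.16, adjusted p = 3.54e-05), from 594 ± 75 to 262 ± 21.9 CPM (SD, n = 4). Notch2 fell 1.65-fold (log2 -0.72 ± 0.12, adjusted p = 0.000178) from 197 ± 8.82 to 119 ± 4.11 CPM, and no duct library of either receptor overlapped a TEB library. Among the targets, Hey1 fell 5.39-fold (log2 -2.43 ± 0.38, adjusted p = 0.000264) and Hes1 1.57-fold (log2 -0.65 ± 0.12, adjusted p = 0.000413). The Hes1 value was -0.44 within the PR-cre model and did not pass (adjusted p = 0.072). Dll1 fell 3.04-fold (log2 -1.61 ± 0.47, adjusted p = 0.0179), a call lost without GFP+ TEB replicate 1 (-1.55), GFP+ TEB replicate 2 (-1.66), YFP- duct replicate 1 (-1.56) or YFP- TEB replicate 1 (-1.33, adjusted p = 0.0829), and within each model (-1.83, adjusted p = 0.0565, and -1.39, adjusted p = 0.19). Jag1 rose 1.77-fold (log2 0.82 ± 0.19, adjusted p = 0.00356), by 1.32 in YFP- cells (adjusted p = 0.00372, where 18.4% of all genes were called), with a value of 0.33 in GFP+ cells (adjusted p = 0.425, where 22.8% were). Moving with these, 7 of 10 luminal progenitor markers were lower in TEBs of this class and 3 were not called. Their sum was 17400 to 70700 CPM in ducts and 6470 to 10700 CPM in TEBs. Trf, 1 of these markers, was alone at 2380 to 45200 CPM in ducts and 591 to 3900 CPM in TEBs. All 10 cell cycle genes were higher, with sums of 121 to 463 and 1110 to 2390 CPM. The part of either list in the result was not tested.

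In Pgr-high cells 4 of the 10 genes fell and the other 6 did not pass, where 24.6% of all genes were called (13% higher and 11.6% lower). DESeq2 also called Heyl as higher (1.56), and edgeR did so without GFP- duct replicate 2 (4.93), which leaves that group with 1 library at 0 counts. Hey1 fell 7.14-fold (log2 -2.84 ± 0.42, adjusted p = 0.00034), and by 2.18 on the log2 scale without GFP- duct replicate 2. Its TEB libraries were at 1.4 to 4.53 CPM and its duct libraries at 4.42 to 50.2 CPM, so that the ranges overlapped. Hes1 fell 1.43-fold (log2 -0.52 ± 0.12, adjusted p = 0.0038), with -0.30 (adjusted p = 0.217) within the Elf5 model. Jag2 fell (log2 -2.59 ± 0.71, adjusted p = 0.0175), but the value was -1.10 (adjusted p = 0.114) without GFP- duct replicate 2, and 5 other libraries each ended the call when left out (YFP+ duct replicate 1, with -2.13, and all 4 TEB libraries, with -2.68 to -2.50). Dll1 fell (log2 -3.18 ± 1.00, adjusted p = 0.0337), with -1.88 (adjusted p = 0.0427) without that library, and the call was lost without either YFP+ duct library, YFP+ TEB replicate 1 or either GFP- TEB library (adjusted p from 0.0549 to 0.266). Within the PR-cre model neither ligand passed (-0.51 for Jag2 and -0.61 for Dll1). The receptors did not pass the test, at -0.21 for Notch1, -0.25 for Notch2 and 0.04 for Notch3. The Notch1 response differed between the luminal classes (log2 -0.96 ± 0.22, adjusted p = 0.0102), in a test that called 10.6% of all genes (4.93% higher and 5.68% lower). Within the Elf5 model it was -0.71 and did not pass. Moving with the changes in Pgr-high cells, 8 of 10 luminal progenitor markers were lower in TEBs (sums of 600 to 1560 CPM in ducts and 187 to 326 CPM in TEBs). Of the 10 basal markers 8 were lower and 1 higher, with sums of 526 to 607 CPM in ducts, apart from 3840 CPM in GFP- duct replicate 2, and 574 to 721 CPM in TEBs. Of 9 keratinocyte genes tested 4 were lower, with sums of 20 to 23.2 CPM in ducts, apart from 2390 CPM in that library, and 14.9 to 49.6 CPM in TEBs. All 10 cell cycle genes were higher (203 to 456 and 962 to 1530 CPM). Their part in the result was not tested.

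In basal cells 1 gene rose and 3 fell, where 43.6% of all genes were called (20.9% higher and 22.8% lower). Ducts and TEBs did not overlap for 2 of the 10 genes in basal cells (37.4% of all genes), 6 in Elf5-high cells (22.9%) and 0 in Pgr-high cells (17.5%). Jag1 fell 1.75-fold (log2 -0.81 ± 0.18, adjusted p = 0.0018), from 200 ± 21.6 to 114 ± 10.9 CPM (SD, n = 4), with no overlap. Within the Elf5 model the value was -0.66 and did not pass (adjusted p = 0.0524), and within the PR-cre model it was -0.95 (adjusted p = 0.0126). Dll1 fell 2.62-fold (log2 -1.39 ± 0.41, adjusted p = 0.0146), from 574 ± 107 to 217 ± 32.6 CPM, also with no overlap. The Dll1 call was lost without basal Elf5-model TEB replicate 1 (-1.34, adjusted p = 0.0572) or 2 (-1.39, adjusted p = 0.052) or PR-cre-model TEB replicate 1 (-1.25, adjusted p = 0.0726). It was also lost within each model (adjusted p = 0.0625 in the Elf5 model and 0.135 in the PR-cre model). With both libraries that stood apart left out it was -1.40 with adjusted p = 3.52e-07. Jag2 differed by 0.24 ± 0.54 (adjusted p = 0.767). Over the same libraries 6 of 10 basal markers were lower in TEBs and 4 were not called. Their sum was 28300 to 30800 CPM in ducts and 7190 to 13300 CPM in TEBs. All 10 cell cycle genes were higher, with sums of 132 to 384 and 1460 to 1910 CPM. The part of either list in the result was not tested.

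Notch1 and Notch3 responded differently in the basal cells of the 2 models. Notch1 was at 91.8 and 58.4 CPM in ducts and 253 and 210 CPM in TEBs of the Elf5 model, and at 110 and 81.9 CPM and 94.7 and 112 CPM in the PR-cre model. Notch3 was at 28.6 and 27.4 CPM in ducts and 8.51 and 7.6 CPM in TEBs of the Elf5 model, and at 4.72 and 4.93 CPM and 8.08 and 8.75 CPM in the PR-cre model. Notch1 was thus raised in the TEBs of 1 model, and Notch3 in the ducts of that same model. In the pooled comparison Notch1 rose 1.82-fold (log2 0.86 ± 0.16, adjusted p = 0.000283) and Notch3 fell by 0.50 ± 0.10 on the log2 scale (adjusted p = 0.000427). Within the Elf5 model the values were 1.62 (adjusted p = 4.26e-05) and -1.80 (adjusted p = 8.66e-08), where 36.4% of all genes were called. Within the PR-cre model they were 0.10 (adjusted p = 0.79) and 0.80 (adjusted p = 0.000463), where 24.7% were. The direction of Notch3 therefore depended on the model.

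The difference between the models' basal TEB responses was tested after these values were seen. It was -2.60 ± 0.19 on the log2 scale for Notch3 (adjusted p = 4.62e-06) and 1.52 ± 0.31 for Notch1 (adjusted p = 0.0307), in a test that called 0.994% of all genes. The Notch3 call held in 24 of 24 fits that each left out 1 library (-2.61 to -2.48). That of Notch1 held in 18, with adjusted p up to 0.101 (1.28 to 1.97), and was lost without basal Elf5-model duct replicate 2 or TEB replicate 1 or 2, or without PR-cre-model duct replicate 1 or TEB replicate 1 or 2. In basal ducts Notch3 was 5.8-fold higher in the Elf5 model (log2 2.54 ± 0.14, adjusted p = 1.32e-08), where 5.07% of all genes were called. In basal TEBs Notch1 was 2.24-fold higher there (log2 1.16 ± 0.22, adjusted p = 0.00387; 1.07, adjusted p = 0.059, without PR-cre-model TEB replicate 1), where 6.93% were. Hes1 was also higher in basal TEBs of the Elf5 model (log2 0.60 ± 0.17, adjusted p = 0.0378), a call that held in 19 of 24 fits without 1 library. Rbpj, described below, was lower there (log2 -0.87 ± 0.14, adjusted p = 0.00101), and the remaining members did not pass. Other cells were measured beside Notch3, which vascular mural cells also express. The sum of 8 pericyte genes was 200 and 248 CPM in basal ducts of the Elf5 model and 161 and 192 CPM in those of the PR-cre model. That of 12 endothelial genes was 138 and 58.8 CPM against 14.2 and 23.2 CPM. None of the markers of these lists was at 0 throughout the basal duct libraries, and their part in the Notch3 difference was not tested.

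**Figure D3:**
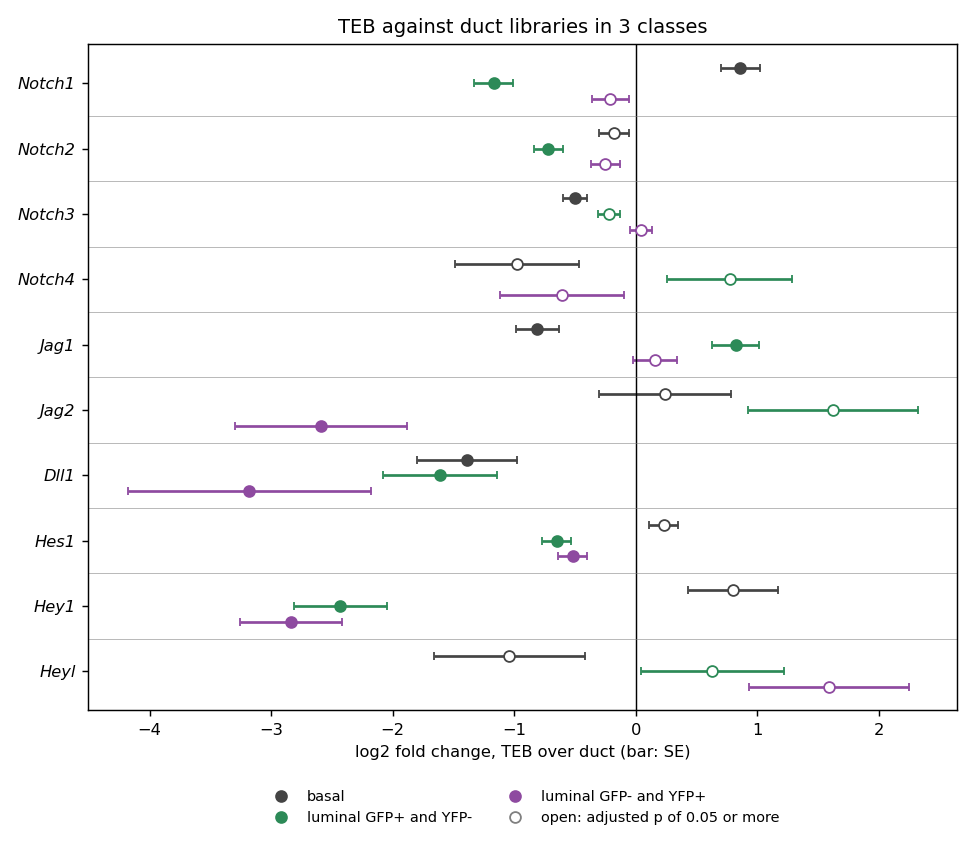
Log2 fold change of TEB over duct libraries for each gene in basal, Elf5-high (GFP+ and YFP-) and Pgr-high (GFP- and YFP+) cells; bars are the SE and open points have an adjusted p of 0.05 or more. Notch1 lies at 0.86 in basal and -1.17 in Elf5-high cells, Jag1 at -0.81 and 0.82, and Hey1 falls in both luminal classes.

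The TEB response differed between the layers for 6 of the 10 genes, in a test of basal against the mean of the 4 luminal gates that called 26.3% of all genes (11.4% higher and 14.9% lower). It was higher in basal cells for Notch1 (log2 1.56 ± 0.19, adjusted p = 1.71e-05), Hes1 (0.82 ± 0.14, adjusted p = 0.000397) and Hey1 (3.43 ± 0.47, adjusted p = 0.000117). Hey1 itself was at 9.36 to 23.9 CPM in basal ducts and 20.1 to 36.1 CPM in basal TEBs (log2 0.80 ± 0.37, adjusted p = 0.102), and it fell in both luminal classes. The response was lower in basal cells for Jag1 (-1.30 ± 0.22, adjusted p = 0.000433), Notch3 (-0.41 ± 0.11, adjusted p = 0.0129) and Heyl (-2.15 ± 0.76, adjusted p = 0.0468). Within the PR-cre model Notch1 was at 0.55 and Hes1 at 0.52, and within the Elf5 model Jag1 at -0.92 (adjusted p = 0.0515), none of which passed. The Notch3 value was -1.82 within the Elf5 model (adjusted p = 1.21e-06) and 1.00 within the PR-cre model (adjusted p = 0.000681), with opposite signs, and its call was lost in 7 of the fits that left out 1 library (-0.38 to -0.33), namely those without Elf5-model duct replicate 1, PR-cre-model TEB replicate 1 or either PR-cre-model duct library of the basal gate, and GFP+, YFP+ or YFP- duct replicate 2. The Heyl call held in 6 of 24 fits without 1 library and within neither model (-2.71 and -1.59), and the value was -3.76 without GFP- duct replicate 2.

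RBPJ, the DNA-binding partner of all Notch receptors, differed between the mouse models within each layer. Rbpj was at 41.6 to 55.4 CPM (median 44, n = 4) in basal libraries of the Elf5 model and 75 to 85.4 CPM (median 80.2, n = 4) in those of the PR-cre model. In luminal libraries it was at 22.4 to 35.9 CPM (median 26.9, n = 8) and 51.7 to 75.9 CPM (median 66.6, n = 8). Within each layer every Elf5-model library was below every PR-cre-model library. Over all gates Rbpj was 2.15-fold lower in the Elf5 model (log2 -1.11 ± 0.06, adjusted p = 4.41e-10; -1.14 to -1.07 over 24 fits without 1 library), in a comparison added after these values were seen that called 26.9% of all genes. Of the 10 members, Hey1 was lower in that model (log2 -0.88 ± 0.22, adjusted p = 0.00903) and Notch3 higher (0.18 ± 0.05, adjusted p = 0.0151), and the other 8 did not pass. The Notch3 value came from basal ducts alone (28 against 4.83 CPM). Its group mean was lower in the Elf5 model in basal TEBs (8.05 against 8.41 CPM), in GFP+ against YFP- cells (288 against 391 CPM in ducts and 281 against 296 CPM in TEBs) and in GFP- against YFP+ cells (230 against 317 CPM and 243 against 320 CPM). Model, strain background and preparation cannot be told apart. Between layers Rbpj was 1.53-fold higher in basal ducts (log2 0.61 ± 0.08, adjusted p = 6.65e-06), and between luminal classes it was higher in Elf5-high TEBs (0.46 ± 0.10, adjusted p = 0.00105). None of the 3 classes had a called TEB response of Rbpj (-0.17 in basal, 0.11 in Elf5-high and -0.16 in Pgr-high cells).

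Other pathway genes were taken from 7 lists by role, 50 genes of which 48 were tested. In receptor cleavage, 9 of 10 genes were lower and 1 higher in basal than luminal ducts (median log2 -0.47, against 0.02 over all genes). There 29.8% of all genes were called lower. The luminal side of the layer comparisons averages Elf5-high and Pgr-high gates, so a call need not hold against both. In basal against luminal TEBs 6 were lower, 2 higher and 2 not called (-0.23 against 0.04), where 28% were called lower. In Elf5-high against Pgr-high ducts 5 were lower and 5 not called (-0.32 against 0), where 23.3% were called lower. In Elf5-high against Pgr-high TEBs 8 were lower and 2 not called (-0.41 against 0.06), where 23% were called lower. Adam10, the protease that makes the first ligand-dependent cut, led the class difference. It was at 725 and 608 CPM in GFP- ducts and 995 and 1040 CPM in YFP+ ducts, and between 130 and 210 CPM in the other 8 duct libraries. On average Adam10 was at 138 CPM in basal, 170 CPM in Elf5-high and 841 CPM in Pgr-high ducts. Its lower level in basal than luminal ducts thus came mainly from the Pgr-high side. The Pgr-high cells had the higher level in every library, and Elf5-high ducts were 4.86-fold lower (log2 -2.28 ± 0.09, adjusted p = 1.44e-11). In TEBs it was at 762 to 881 CPM in Pgr-high cells and 192 to 218 CPM in Elf5-high cells (log2 -1.97 ± 0.09, adjusted p = 8.11e-11).

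Of 5 receptor glycosylation genes, 4 were higher in basal than luminal ducts and 4 in TEBs (medians 1.54 and 0.93), where 33.5% and 30.8% of all genes were called higher. Poglut1, an O-glucosyltransferase of Notch, was 2.9-fold higher in basal ducts (log2 1.54 ± 0.07, adjusted p = 1.03e-11). Pofut1, the O-fucosyltransferase, did not pass in ducts (0.05), and basal ducts were below Pgr-high ones for it (45.2 against 53.7 CPM on average). Rfng, called by 0.28 in ducts (adjusted p = 0.0381), had 24.7 CPM in basal, 25.4 CPM in Elf5-high and 16.5 CPM in Pgr-high ducts. Lfng, which adds sugars that alter which ligand a receptor answers to, was at 25.3 to 36.1 CPM in basal ducts, 9.25 to 15.1 CPM in Pgr-high ducts and 0.0647 to 1.24 CPM in Elf5-high ducts. None of these ranges overlapped another, and the YFP- libraries, at 0.216 and 0.0647 CPM, were near the level of a count of 3. Elf5-high ducts were 30.6-fold below Pgr-high ducts (log2 -4.94 ± 0.27, adjusted p = 2.72e-10). In Elf5-high cells Lfng rose in TEBs to 1.5 to 2.62 CPM (log2 2.33 ± 0.28, adjusted p = 1.07e-05), a response 2.11 ± 0.35 above that of Pgr-high cells (adjusted p = 0.00102).

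In the nuclear complex list, 5 of 9 genes were higher and 1 lower in Elf5-high than Pgr-high ducts (median log2 0.21 against 0). In TEBs 4 were higher and 1 lower (0.14 against 0.06). In each of these comparisons 24.6% of all genes were called higher. Maml2, a Mastermind co-activator, was at 105 to 128 CPM in Elf5-high ducts, 74 to 117 CPM in basal ducts and 7.7 to 18.6 CPM in Pgr-high ducts. Pgr-high cells thus stood below both other classes, and the luminal classes were 8.56-fold apart (log2 3.10 ± 0.21, adjusted p = 1.09e-08). Kat2b, a histone acetyltransferase, was at 70.8 to 99.8 CPM in basal ducts and 17.7 to 32.2 CPM in basal TEBs, a fall of 3.56-fold (log2 -1.83 ± 0.12, adjusted p = 1.01e-08).

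Of 9 receptor turnover genes and inhibitors, 7 were lower and 2 not called in basal TEBs against ducts (median log2 -0.97 against -0.04), where 22.8% of all genes were called lower. In Elf5-high cells 5 were lower, 1 higher and 3 not called (-0.34 against 0.02), where 15.2% were called lower. In Pgr-high cells 2 were lower, 1 higher and 6 not called (-0.03 against 0), where 11.6% were. Numb, which promotes Notch degradation, was at 128 and 158 CPM in GFP+ ducts and 206 and 205 CPM in YFP- ducts, and at 67.9 and 73.9 CPM and 66.8 and 62.9 CPM in the matching TEBs. The fall was 2.53-fold (log2 -1.34 ± 0.10, adjusted p = 6.44e-08), and the TEB range overlapped that of the Pgr-high libraries, which had 54.8 to 69.9 CPM in the 2 tissues (class difference in TEBs 0.19 ± 0.09, adjusted p = 0.104). The Numb response differed between the luminal classes by -1.22 ± 0.13 (adjusted p = 2.47e-05).

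Of 6 other Hes, Hey and feedback genes tested, 1 was lower and 5 were not called in Elf5-high TEBs against ducts. In that comparison 15.2% of all genes were called lower. The lower one was Hey2, a Notch-induced repressor. It was at 59.6 and 40.9 CPM in GFP+ ducts and 27.3 and 12.7 CPM in YFP- ducts. It was at 3.36 to 7 CPM in the matching TEBs (log2 -2.62 ± 0.64, adjusted p = 0.00651), and at 0 to 1.79 CPM in all Pgr-high libraries. Nrarp, a feedback inhibitor induced by Notch, had 32.1 ± 17.9 CPM in Elf5-high ducts and 32.7 ± 12 CPM in their TEBs (SD, n = 4; log2 0.13, adjusted p = 0.696). Of 4 other ligands tested, 1 was lower and 3 were not called in the same comparison. The lower one, Dll4, a ligand known from endothelium, was at 10.3 and 8.77 CPM in GFP+ ducts and 1.46 and 1.55 CPM in YFP- ducts, and fell to 0.362 to 0.997 CPM in their TEBs (log2 -2.62 ± 0.54, adjusted p = 0.0012). The 12 endothelial genes summed to 25.7 and 17.7 CPM in GFP+ ducts, 5.19 and 6.79 CPM in YFP- ducts, and 6.54 to 21.6 CPM in these TEBs. In Pgr-high ducts, where Dll4 was at 0.672 to 1.59 CPM, they summed to 57.1 to 111 CPM. Vwf, 1 of the 12, was alone at 39.2 to 99.9 CPM there. The part of endothelial cells in the Dll4 level was not tested.

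**Figure D4:**
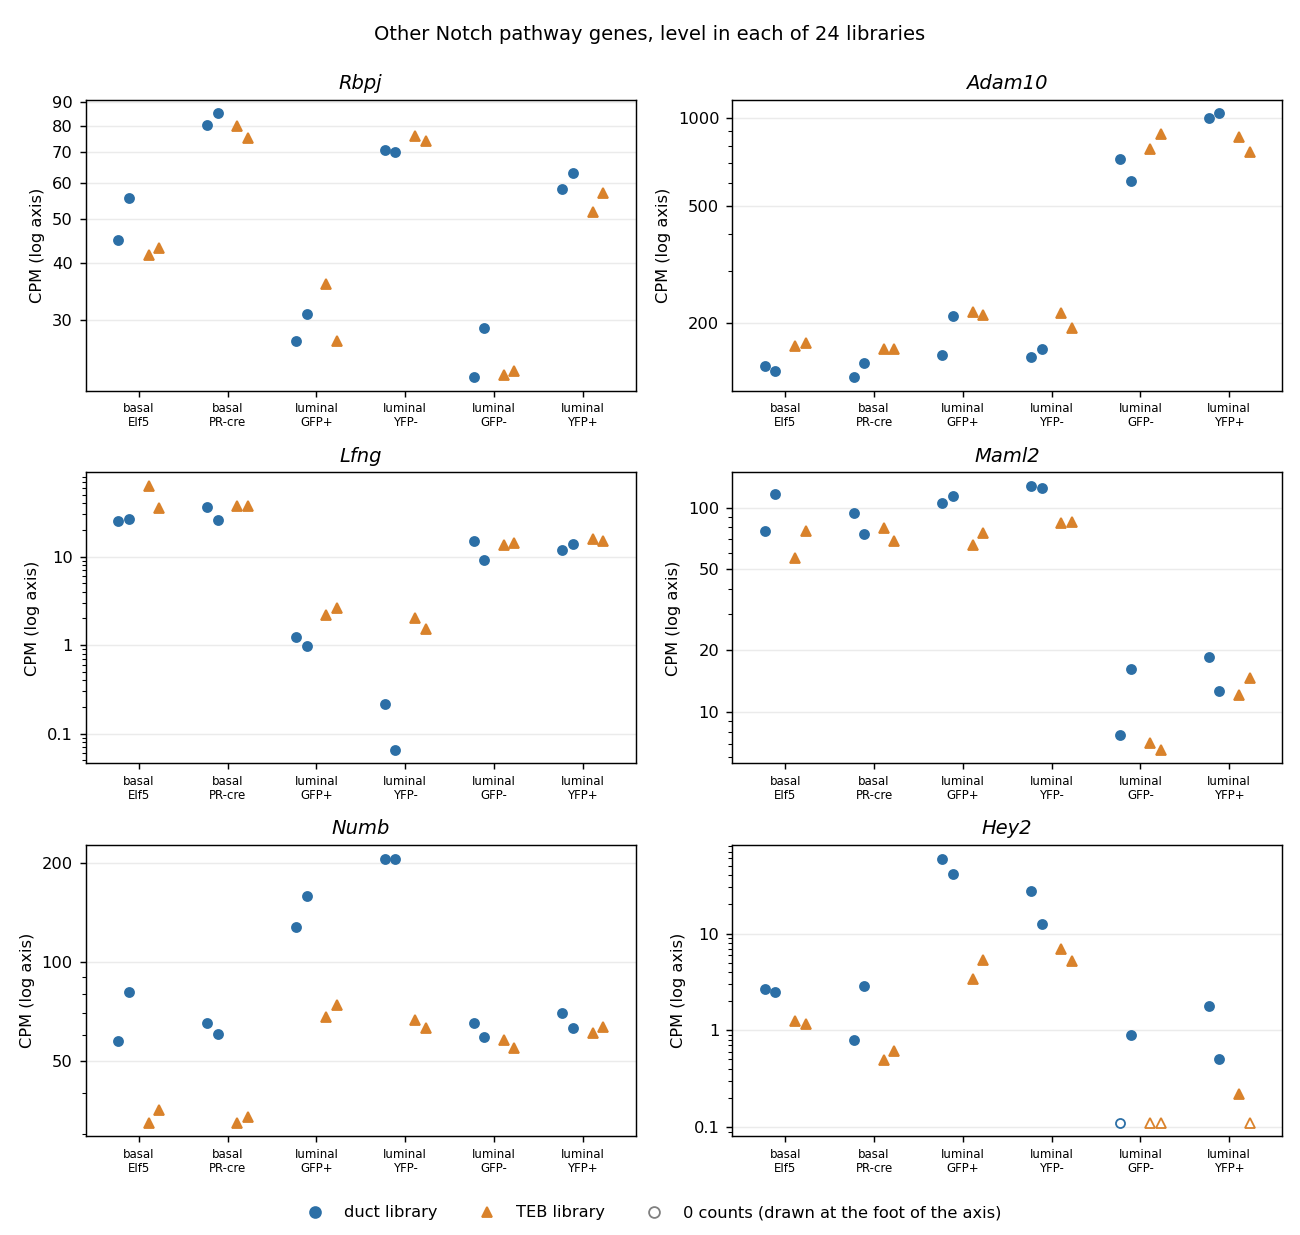
CPM on a log axis in each of the 24 libraries for Rbpj, Adam10, Lfng, Maml2, Numb and Hey2; circles are duct libraries, triangles TEB libraries, and open markers are libraries with 0 counts. Rbpj is lower in the Elf5-model gates (basal Elf5, GFP+ and GFP-), and Adam10 is highest in GFP- and YFP+ cells.

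Across the 24 libraries, log2 CPM of the members correlated at r = 0.9 for Notch2 and Hey1, 0.84 for Notch1 and Hey1, 0.83 for Notch1 and Notch2 and 0.89 for Jag2 and Dll1, and at -0.94 for Notch3 and Jag2 and -0.88 for Notch1 and Jag1. The libraries share groups, so these are descriptions of the pattern over classes. The gene most like each member over the same libraries was Btn2a2 for Notch1 (r = 0.931), Tcf7l2 for Notch2 (0.952), Cecr2 for Notch3 (0.986), Zcchc24 for Jag1 (0.983), Irx4 for Jag2 (0.988), Egr2 for Dll1 (0.985), Gna14 for Hes1 (0.927), Rftn1 for Hey1 (0.97) and Rasa2 for Heyl (0.883). For Notch4, which had no clear pattern, it was Idh3g (0.657). In order of group level, Dll1 spanned the widest range, from 678 and 655 CPM in basal Elf5-model ducts to 0.128 and 0.0437 CPM (5 and 2 counts) in GFP- TEBs. The highest group of Jag2 was 458-fold above the lowest, and the range was 268-fold for Hey1, 81-fold for Notch3, 34.1-fold for Jag1, 19.7-fold for Heyl, 8.76-fold for Notch1, 3.37-fold for Hes1, 3.31-fold for Notch2 and 2.47-fold for Notch4. Libraries of neighbouring groups did not overlap in 7 of 11 steps for Dll1 and Hey1, 6 for Notch3, 4 for Notch1, Notch2, Jag1 and Hes1, 3 for Jag2, 2 for Heyl and 0 for Notch4.

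Notch1 lies on chromosome 2 from 26457902 to 26503822 (Entrez 18128), Notch2 on chromosome 3 from 98013538 to 98150367 (18129), Notch3 on chromosome 17 from 32120820 to 32166896 (18131) and Notch4 on chromosome 17 from 34564286 to 34588543 (18132). Jag1 lies on chromosome 2 from 137081451 to 137116520 (16449), Jag2 on chromosome 12 from 112907803 to 112929812 (16450) and Dll1 on chromosome 17 from 15367354 to 15376932 (13388). Hes1 lies on chromosome 16 from 30065357 to 30067796 (15205), Hey1 on chromosome 3 from 8663359 to 8667038 (15213) and Heyl on chromosome 4 from 123233556 to 123249870 (56198), all in mm10. Because the library kit does not mark strand, reads of Notch1, Notch3 and Dll1 cannot be told apart from those of annotated genes on the other strand that overlap them (0610009E02Rik and Gm13568, Gm17276, and A930024N18Rik), nor reads of Notch2 from Gm42820 on the same strand.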

How the data were processed

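Per the labels' protocols, RNA was purified by miRNeasy with DNase treatment, and libraries were built with TruSeq RNA v2 reagents. The authors deposited raw counts of reads per gene, made with featureCounts on mm10 per the submitters' processing notes; the aligner, annotation release, strand setting and treatment of multiply matching reads were not given in the sources used here. The table of the whole series and the single files differed in 0 values. Symbols were matched through RefSeq for 25275 of 27179 genes.

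Counts were analysed with edgeR 4.0.16 (limma 3.58.1, R 4.3.3). Genes were kept by filterByExpr (minimum count 10, minimum total 15), libraries scaled by TMM, and 1 robust quasi-likelihood model with 12 group means was fitted to all 24 libraries (12 residual degrees of freedom). Contrasts average groups on the log2 scale, and p-values were adjusted by Benjamini-Hochberg over 18109 genes, with calls under 0.05. The SE is the size of the log2 fold change over the square root of F. CPM use TMM-scaled library sizes, and CPM per kb divide them by the deposited gene length. The SE rests on the quasi-likelihood fit and the SD on values of single libraries, so both include the spread between libraries. The CPM level given for a small count covers counting error only. The procedure was tested on simulated data for basal TEBs against ducts only. It recovered 79% of the changes of 1 and 92% of those of 2 on the log2 scale, with 5.52% of calls false. The simulated libraries were independent and far fewer genes changed than were called in the data. The simulation therefore cannot give the error of the real comparisons.

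The 10 members and all gene lists were chosen with earlier results of these data known. All members are named; other pathway genes are named from the 3 largest called changes in each direction of a comparison, or from Rbpj, Dll4, Lfng, Mfng, Hes5, Hey2 and Nrarp. The genes most like a member are those with the highest Pearson r of log2 CPM (prior count 2). Comparisons between the 2 mouse models were added after the data were seen. Alternatives were RLE size factors, DESeq2 1.42.0, no low-count filter, robust fitting off and only the groups compared. Further ones were both libraries with keratinocyte transcripts left out, a replicate block, and 24 fits that each left out 1 library. Values within each model are contrasts of that model's groups in the main fit of all 24 libraries.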

Additional observations from a re-analysis of the deposited data

Results flagged for a closer look

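The TEB response differed between the basal gate and the mean of the luminal gates, by a test of the difference itself, for Notch1 (1.56 on the log2 scale, basal minus luminal), Notch3 (-0.41), Jag1 (-1.30), Hes1 (0.82), Hey1 (3.43) and Heyl (-2.15). Between Elf5-high and Pgr-high luminal cells it differed for Notch1 (-0.96) and Jag2 (4.21). The Jag2 value was 2.68 without luminal GFP- duct replicate 2, which had 51.5 CPM of Jag2 beside 3.44 CPM in its replicate, and 2.17 without both libraries rich in keratinocyte transcripts. It lost its call without YFP+ duct replicate 1 (3.72, adjusted p = 0.0774, edgeR) and within the PR-cre model (3.45, adjusted p = 0.266). In basal cells, the TEB response differed between the Elf5 and PR-cre models for Notch1 (1.52) and Notch3 (-2.60), again by a test of the difference, added after the values were seen.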

How the results depend on the processing

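RLE size factors, DESeq2, no low-count filter and robust fitting off turned no member's direction where it was called. The value was reversed for Notch1 in basal against luminal TEBs within the Elf5 model (0.63), and within the PR-cre model for Notch3 in basal TEBs against ducts (0.80) and in the difference of TEB responses between layers (1.00). Within the Elf5 model alone, the members called fell to 1 lower in basal against luminal TEBs, 4 higher in Elf5-high against Pgr-high TEBs, 0 higher in Elf5-high TEBs against ducts, 1 lower in the layer difference and 0 lower in the class difference of TEB responses, and in basal TEBs were 2 higher and 1 lower. Within the PR-cre model alone they were 1 lower in Elf5-high against Pgr-high ducts, 1 lower in basal TEBs, 2 lower in Pgr-high TEBs, 1 lower in the layer difference and 0 higher in the class difference. These are contrasts of fewer groups within the same fit of all 24 libraries. Within the PR-cre model the genes called in all numbered 4474 (24.7%) in basal, 3341 (18.4%) in Elf5-high and 1424 (7.86%) in Pgr-high TEBs against ducts. They numbered 2204 in the layer difference and 504 in the class difference (1037 within the Elf5 model). The main fit had 7902, 5900, 4463, 4761 and 1922. Within the Elf5 model 36.4% of all genes were called in basal and 22.8% in Elf5-high TEBs against ducts. The member counts in this paragraph show only how calls moved with the setting, and shares by direction are not given beside them. With only the groups compared in the fit, 1 member was lower between classes in ducts, 4 were higher in basal TEBs (Jag2, Hes1 and Hey1 joined Notch1) and 2 in Elf5-high TEBs. DESeq2 called 2 higher in Elf5-high and 1 in Pgr-high TEBs. Without both keratinocyte-rich libraries 2 were higher in basal TEBs, 2 in Elf5-high and 1 in Pgr-high TEBs, and 3 were lower in the class difference.

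Leaving out 1 library at a time, the genes called ranged from 10677 to 11837 (basal against luminal ducts), 9638 to 11080 (the same in TEBs), 7606 to 8736 (Elf5-high against Pgr-high ducts), 7431 to 9053 (TEBs), 6669 to 8549 (basal TEBs against ducts), 4627 to 6669 (Elf5-high), 3101 to 5063 (Pgr-high), 3846 to 5561 (layer difference) and 1372 to 2654 (class difference). In the same order, members called higher ranged from 3 to 4, 3 to 4, 6 to 7, 6 to 7, 1 to 2, 1 to 2, 0 to 1, 3 to 5 and 0 to 2. Members called lower ranged from 5 to 5, 2 to 4, 1 to 2, 1 to 1, 2 to 3, 4 to 6, 2 to 5, 1 to 3 and 1 to 3.

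Same-numbered libraries of a model deviated together at r = 0.003 to 0.152, not over 0.1 in every pair, so the numbers were not taken as pairing. All of these correlations were positive, and whether same-numbered libraries share a preparation was not tested. With the replicate block, 2 members were called higher (Jag1 at 0.67 beside Jag2) and 2 lower (Notch2 at -0.48 beside Notch1) in the class difference of TEB responses. Elsewhere it moved the side of the threshold for Notch2 in basal against luminal TEBs (adjusted p = 0.0261, edgeR), Jag2 between classes in TEBs (0.0579), Notch3 in Elf5-high TEBs (0.0427), Dll1 in Pgr-high TEBs (0.0513) and Heyl in the layer difference (0.0508). Depth limits Heyl, Notch4 and luminal Dll1, where single libraries hold 0 to 65 counts in Pgr-high cells for Heyl.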
